A study of Arabidopsis thaliana with 15 samples.

Results

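Leaf transcriptomes of ubc22 mutant Arabidopsis thaliana plants of Types III and IV were compared with those of ubc22 plants of Types I and II. The comparison used 12 of the 15 libraries of the study, 6 from Types III and IV and 6 from Types I and II, and left out the 3 WT libraries. All 12 libraries came from leaves of 21-day-old plants of the Col-0 background that carried the ubc22 genotype, descended from 1 parent mutant and were assigned to a type by leaf size, shape and colour. Leaves of Type III were pale, long and narrow, and Type IV consisted of small plants whose leaf margins were serrated. Type I plants looked like WT, and Type II plants had leaves that were broader and more round. Every type had 3 libraries, which the labels call biological replicates without saying how many plants each held, and p-values therefore reflect variation among these libraries alone. Because plants were sorted by appearance, whatever else travels with appearance cannot be told apart from the type. The hour of harvest is not given in the sources used here.

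UBC22 encodes a ubiquitin-conjugating enzyme (E2), one of the proteins that take over activated ubiquitin and, with a ligase, pass it to target proteins, many of which are then degraded by the proteasome. The plant circadian clock is a loop of transcription factors in which morning MYB factors such as CCA1 repress evening genes such as TOC1 and GI through the evening element, a short motif in their promoters, and the evening genes in turn repress the morning ones. Leaves store starch by day and break it down by night, and when sugar runs out they switch on a set of starvation genes that degrade branched-chain amino acids and other reserves. Anthocyanins, the red and purple pigments of stressed leaves, and glucosinolates, the sulfur-rich defence compounds of the cabbage family, are made by dedicated enzyme chains under MYB regulators.

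The deposited values are normalized read counts per locus. The test took in every locus whose mean in the 15 libraries reached 10, which kept 17560 of 34307 loci, 8687 of them on chromosomes 1 and 5. Just inside that minimum, 175 loci had a mean of 10 to 11, and just outside it 169 had a mean of 9 to 10. The libraries of Types III and IV held 10090917 to 13138977 reads counted in genes, and those of Types I and II held 9990997 to 11539393. A locus was called where limma gave an adjusted p under 0.05, and each type entered with equal weight. A log2 difference is Types III and IV minus Types I and II on the log2(value + 1) scale, which understates the change of low genes. In these bulk leaf samples fewer cells of a type and less RNA per cell cannot be told apart. UBC22 itself (AT5G05080, chr5:1498438-1500784) had 319.6, 294 and 296 in Type III and 318, 378 and 243 in Type IV, against 226, 252 and 305 in Type I and 227, 288 and 302 in Type II normalized counts, while the WT libraries held 663.0 to 695.6. Its level in Types III and IV overlapped that in Types I and II (log2 difference 0.21, SE 0.11, limma adjusted p = 0.14), and without Type IV replicate 3 the log2 difference was 0.29 with a limma adjusted p of 0.0252. The 22 antenna and Rubisco genes of the table summed to 1526410 to 1993960 normalized counts in Types III and IV and 1402320 to 2034690 in Types I and II. The 9 seed markers summed to at most 13.3 in Types III and IV and 12.0 in Types I and II, with OLEO2, CRC and SESA4 at 0 in all 12 libraries. The 5 flower organ markers summed to 21.5 to 123.8 in Types III and IV and 12.9 to 105.7 in Types I and II. The 4 root markers summed to 315 to 712 in Types III and IV and 299 to 352 in Types I and II, with EXPA7 at 0. COBL9, CASP1 and EXPA7 were under the minimum mean of 10, so this sum is mostly PHO1. PHO1 was called higher (log2 difference 0.59), with Type III above Type IV (Type III minus Type IV 0.88). Type IV replicate 3 stood apart from Type IV replicates 1 and 2 (chi-square per degree of freedom 15.72 and 19.01, against 6.268 between those replicates).

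Of all loci tested, 4668 (26.6%) were higher and 4800 (27.3%) were lower in Types III and IV, 53.9% together. The calls were spread unevenly over the chromosomes. Chromosome 1 had 25.3% higher and 20.5% lower, and chromosome 5 had 26.1% and 20.0%. On chromosome 3, 2044 of 3533 loci were higher (57.9%) and 278 lower (7.87%). On chromosome 2, 155 of 2659 loci were higher (5.83%) and 1606 lower (60.4%), and on chromosome 4, 236 of 2637 were higher (8.95%) and 1137 lower (43.1%). The median log2 difference was 0.32 on chromosome 3, -0.36 on chromosome 2 and -0.22 on chromosome 4. Chromosomes 1 and 5 had medians of 0.03 and 0.04, close to the median of -0.01 over all loci. Relative to the mean of the 6 Type I and II libraries, the chromosome 3 median lay at 0.51 to 0.52 in the Type III libraries and 0.14 to 0.16 in the Type IV libraries. The chromosome 4 median was -0.43, -0.43 and -0.25 in Type IV replicates 1, 2 and 3. The chromosome 2 median was -0.35 to -0.34 in Type III and -0.38 to -0.31 in Type IV, against -0.25 to -0.24 in Type I and 0.23 to 0.27 in Type II. The chromosome 1 median was -0.07 to -0.06 in Type III and 0.10 to 0.14 in Type IV. That of chromosome 5 was -0.06 to -0.05 in Type III and 0.10 to 0.16 in Type IV. Values of single genes on chromosomes 2, 3 and 4 therefore carry a shift of their whole chromosome. On chromosomes 1 and 5 Types III and IV lay on opposite sides with the deposited scaling, so that only the joint median was near 0. This offset depends on the scaling. Type III was higher than Type IV at 415 loci there and lower at 2235 as deposited. With size factors from chromosomes 1 and 5 the counts were 980 and 1057. Genes of chromosomes 1 and 5 are described first.

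**Figure D1:**
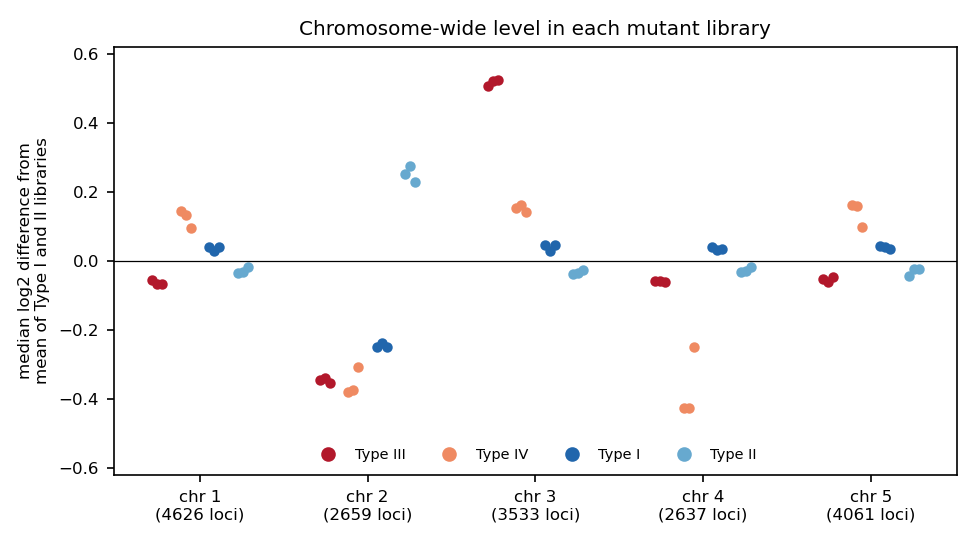
Median log2 difference of the tested loci of each chromosome in each mutant library from the mean of the 6 Type I and II libraries, 1 point per library, coloured by type. Chromosome 3 is raised in the 3 Type III libraries (0.51 to 0.52), chromosome 2 is raised in the 3 Type II libraries (0.23 to 0.27), and chromosome 4 is lowered in the 3 Type IV libraries (-0.43 to -0.25).

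On chromosomes 1 and 5, 2230 of 8687 loci (25.7%) were higher and 1761 (20.3%) were lower in Types III and IV, 45.9% together. Of these, 277 (3.19%) were at least 2-fold higher and 296 (3.41%) at least 2-fold lower. All 6 libraries of Types III and IV lay above all 6 of Types I and II for 705 called loci (8.12%), and below them for 420 (4.83%). Both at least 2-fold changed and not overlapping were 175 higher loci (2.01%) and 157 lower loci (1.81%). Without Type IV replicate 3, 2287 loci of chromosomes 1 and 5 were higher and 1787 lower. The excess of higher calls moved with the scaling, at 1996 higher and 1943 lower with size factors from chromosomes 1 and 5. Centred per chromosome, the counts were 1895 and 1878.

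Among genes with a single locus in the table, the 10 largest increases on chromosomes 1 and 5 included several metabolic enzymes and a clock gene. FKF1, whose code has 2 loci, is left out of these 10 although its log2 difference of 5.74 was larger than theirs, and it is described with the clock. AT5G41080 (chr5:16441655-16444023), which encodes the glycerophosphodiester phosphodiesterase GDPD2, had 2539, 1945 and 2502 in Type III and 1293, 2555 and 441 in Type IV, against 38.2, 147 and 86.0 in Type I and 19.0, 27.9 and 58.2 in Type II normalized counts. Every library of Types III and IV lay above every library of Types I and II (log2 difference 4.99, SE 0.41, limma adjusted p = 9.4e-07). AT1G56300 (chr1:21078023-21080423), annotated as a chaperone with a DnaJ domain, had 573, 662 and 585 in Type III and 123, 109.6 and 79.2 in Type IV, against 12.1, 7.72 and 17.4 in Type I and 4.01, 3.1 and 13.9 in Type II. Its Type III libraries were the highest, its Type IV libraries came next, and the groups did not overlap (log2 difference 4.75, SE 0.28, limma adjusted p = 8.4e-08). BCAT2 (AT1G10070, chr1:3288087-3290471), a branched-chain amino acid transaminase, had 740.3, 722 and 989.7 in Type III and 947, 1006 and 258 in Type IV, against 33.2, 39.5 and 39.5 in Type I and 20.1, 20.7 and 56.3 in Type II. Type IV replicate 3 was the lowest of the 6 libraries of Types III and IV and still stood above all of Types I and II (log2 difference 4.40, SE 0.32, limma adjusted p = 3.99e-07). THA1 (AT1G08630, chr1:2743761-2747967), a threonine aldolase, was about as high in Type IV as in Type III, with 106 ± 12.0 in Type III and 142 ± 68.9 in Type IV, against 10.2 ± 3.26 in Type I and 7.23 ± 1.14 in Type II (SD, n = 3 each), and the groups did not overlap (log2 difference 3.64, SE 0.24, limma adjusted p = 1.84e-07). NIC2 (AT5G23230, chr5:7825858-7826611), a nicotinamidase that recycles a part of NAD, was high mainly in Type III, with 751 ± 233 in Type III and 79.0 ± 23.9 in Type IV, against 21.4 ± 5.3 in Type I and 20.0 ± 11.5 in Type II (SD, n = 3 each). Its groups did not overlap either (log2 difference 3.57, SE 0.29, limma adjusted p = 9.23e-07). The other loci among these 10 were AT1G15380 (the glyoxalase family member GLYI4) with a log2 difference of 4.55 (SE 0.34, limma adjusted p = 4.73e-07), the transposable element gene AT5G28335 with 4.42 (SE 0.42, limma adjusted p = 2.91e-06), AT1G15040 (the glutamine amidotransferase-like GAT1_2.1) with 3.96 (SE 0.51, limma adjusted p = 3e-05) and the CBS domain gene PV42A with 3.32 (SE 0.43, limma adjusted p = 3.28e-05). PRR5, also among the 10, is described with the clock.

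Among the 10 largest decreases on chromosomes 1 and 5, by the same choice, 5 encode enzymes or a transport factor of the anthocyanin pathway. These are UF3GT, F3'H, GSTF12 and the acyltransferases 3AT1 and 3AT2, and they are described with that pathway. The largest decrease was of S-ACP-DES6 (AT1G43800, chr1:16577521-16579722), a fatty acid desaturase that acts on acyl carrier protein, which had 0, 0.937 and 3.06 in Type III and 5.57, 2.13 and 20.5 in Type IV, against 82.5, 77.2 and 66.3 in Type I and 84.2, 56.9 and 50.8 in Type II normalized counts. All 6 libraries of Types III and IV lay below all 6 of Types I and II, with Type IV replicate 3 the highest of the 6 (log2 difference -4.16, SE 0.43, limma adjusted p = 5.27e-06). RFK1 (AT1G29720, chr1:10393659-10399873), a receptor kinase with leucine-rich repeats, had 40.6, 35.6 and 60.1 in Type III and 197, 126 and 287 in Type IV, against 756, 738 and 536 in Type I and 1038, 706 and 514 in Type II. Its Type III libraries were lowest, its Type IV libraries lay between, and the groups did not overlap (log2 difference -2.89, SE 0.21, limma adjusted p = 3.99e-07). NAS1 (AT5G04950, chr5:1457641-1459039), which makes the metal chelator nicotianamine, averaged 30.1 ± 8.57 in Type III and 47.8 ± 31.6 in Type IV, against 202 ± 2.69 in Type I and 333 ± 114 in Type II (SD, n = 3 each; log2 difference -2.82, SE 0.26, limma adjusted p = 2.41e-06). SULTR3;5 (AT5G19600, chr5:6612815-6617047), of the sulfate transporter family, averaged 6.93 ± 1.05 in Type III and 21.7 ± 11.5 in Type IV, against 61.6 ± 7.98 in Type I and 92.2 ± 11.6 in Type II (SD, n = 3 each; log2 difference -2.58, SE 0.23, limma adjusted p = 2.13e-06). AT1G77960 (chr1:29310021-29313571), for which the table gives no description, averaged 0.965 ± 0.939 in Type III and 14.3 ± 6.92 in Type IV, against 38.4 ± 5.83 in Type I and 157 ± 39.8 in Type II (SD, n = 3 each; log2 difference -3.95, SE 0.30, limma adjusted p = 6.3e-07). Its groups did not overlap, and its Type II libraries were higher than its Type I libraries.

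**Figure D2:**
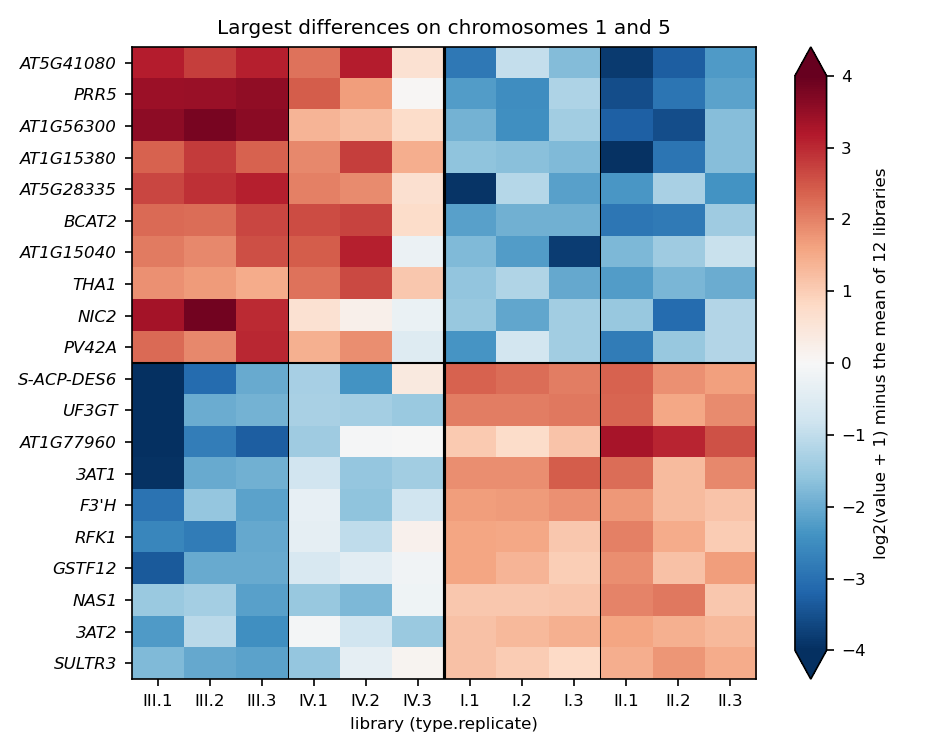
Heat map of the 10 largest increases (upper rows) and 10 largest decreases (lower rows) on chromosomes 1 and 5 among genes with a single locus in the table, which leaves out FKF1, as log2(value + 1) of each library minus the mean of the 12 libraries. Columns are the 6 libraries of Types III and IV, then the 6 of Types I and II, and colours saturate at the ends of the scale. No row overlaps between the 6 left and the 6 right columns, and the Type IV libraries often lie between those of Type III and those of Types I and II.

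The other chromosomes held increases of the same size, far beyond their own shifts. MIOX4 (AT4G26260, chr4:13297695-13300444), a myo-inositol oxygenase, had 268, 368 and 433 in Type III and 47.8, 111 and 95.8 in Type IV, against 0, 9.64 and 4.65 in Type I and 6.02, 11.4 and 5.54 in Type II normalized counts (log2 difference 4.89, SE 0.46, limma adjusted p = 2.6e-06). ERD5 (AT3G30775, chr3:12448636-12451556), the proline dehydrogenase that starts proline breakdown, had 15662, 12412 and 19536 in Type III and 10087, 11151 and 3069.7 in Type IV, against 389, 1432 and 1008 in Type I and 181, 682 and 638 in Type II (log2 difference 4.13, SE 0.41, limma adjusted p = 3.88e-06). Neither gene overlapped between the groups, and in ERD5 Type IV replicate 3 was the lowest of Types III and IV. MIOX2 followed with a log2 difference of 3.61 (SE 0.42, limma adjusted p = 1.52e-05), the cysteine protease gene AT3G19390 with 4.35 (SE 0.34, limma adjusted p = 6.89e-07), and AT3G62460, annotated as a putative endonuclease or glycosyl hydrolase, with 3.26 (SE 0.26, limma adjusted p = 8.91e-07). Of the 5 largest decreases there, LDOX, UGT75C1 and 5MAT belong to the anthocyanin pathway. The others were the glycosyltransferase gene UGT86A1, with a log2 difference of -3.12 (SE 0.33, limma adjusted p = 5.91e-06), and the dark-inducible dioxygenase gene DIN11, with -3.02 (SE 0.36, limma adjusted p = 1.61e-05). DIN11 averaged 11.7 ± 8.57 in Type III and 8.57 ± 1.75 in Type IV, against 40.3 ± 15.2 in Type I and 207 ± 147 in Type II (SD, n = 3 each).

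The clock genes were high in the evening set and low in most of the morning set in Types III and IV. Of 12 afternoon and evening genes tested, 9 were higher and 0 lower, with a median log2 difference of 1.58, and the 3 remaining genes were not called. Of 15 morning genes tested, 10 were lower and 3 higher, with a median of -0.52. Over all loci 26.6% were higher and 27.3% lower, and the median was -0.01. LHY, the partner of CCA1, was not analysed here. Since the hour of harvest is not given, it cannot be told apart from the type in these genes, nor in the starch and starvation genes. The groups did not overlap in 6 of the higher evening genes, 2 of the higher morning genes and 2 of the lower morning genes, which over all loci was so for 8.4% on the higher and 7.7% on the lower side. The largest difference was in FKF1, a blue-light receptor and F-box protein of the photoperiod pathway. Of the clock genes described below, PRR5, FKF1, TOC1 and RVE7 were higher and hold the evening element, and their promoters are shown. They are the 300 bases before the annotated gene start, read 5′ to 3′ on the gene's strand from the RefSeq TAIR10.1 genome, with the evening element AAAATATCT or its reverse complement in capitals.
PRR5 (chr5:8358547-8358846, minus strand): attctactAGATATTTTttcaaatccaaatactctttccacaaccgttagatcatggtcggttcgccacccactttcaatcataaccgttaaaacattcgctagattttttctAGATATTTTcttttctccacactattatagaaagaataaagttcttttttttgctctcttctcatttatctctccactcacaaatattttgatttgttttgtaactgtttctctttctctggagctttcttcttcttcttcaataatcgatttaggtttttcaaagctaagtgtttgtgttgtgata
FKF1 (chr1:25508339-25508638, plus strand): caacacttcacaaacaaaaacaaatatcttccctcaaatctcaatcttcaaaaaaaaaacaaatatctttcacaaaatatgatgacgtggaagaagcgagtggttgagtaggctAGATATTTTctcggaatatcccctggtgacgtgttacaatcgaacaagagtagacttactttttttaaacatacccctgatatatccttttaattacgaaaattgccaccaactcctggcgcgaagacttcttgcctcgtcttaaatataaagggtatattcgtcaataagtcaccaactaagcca
TOC1 (chr5:24674663-24674962, plus strand): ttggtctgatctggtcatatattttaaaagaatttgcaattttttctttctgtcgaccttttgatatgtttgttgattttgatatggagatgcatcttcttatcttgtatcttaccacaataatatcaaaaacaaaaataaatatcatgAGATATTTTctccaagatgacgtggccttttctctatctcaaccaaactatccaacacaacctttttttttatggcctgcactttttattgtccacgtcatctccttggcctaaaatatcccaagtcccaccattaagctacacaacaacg
RVE7 (chr1:6308244-6308543, minus strand): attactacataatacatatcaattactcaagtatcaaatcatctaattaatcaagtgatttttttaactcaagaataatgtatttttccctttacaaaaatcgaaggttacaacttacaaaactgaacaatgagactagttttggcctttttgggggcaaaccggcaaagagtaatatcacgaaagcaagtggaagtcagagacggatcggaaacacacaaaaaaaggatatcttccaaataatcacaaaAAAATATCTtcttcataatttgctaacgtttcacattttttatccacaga
PRR5 holds 2 copies and the others 1. ISA3, DREB2A, GRP7, CCL and FLC, described below and all higher, also hold the element, and so does COL2, which was lower. GI has 0 copies in its window. The element nearest the gene start lies 179 bases before it in PRR5, 178 in FKF1, 143 in TOC1 and 42 in RVE7. On either strand the motif is in 765 of the 27443 upstream windows of protein-coding genes (2.788%) and in 517 of 16963 windows of tested genes (3.048%). It is in 5 of 13 afternoon and evening clock genes, 5 of 9 clock output genes, 1 of 16 morning genes and 0 of 20 genes of the starvation list. Of the genes of chromosomes 1 and 5 that were at least 2-fold changed without overlap, 12 of 153 higher ones (7.843%) and 2 of 137 lower ones (1.46%) hold it. The related CCA1-binding site AAAAATCT is in 7.94% of all windows. It is in 2 of 13 evening genes and 2 of 16 morning genes. The G-box CACGTG is in 7.087% of all windows and in 9 of 16 morning genes. A match describes letters in the window and is not evidence of binding.

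FKF1 (AT1G68050, chr1:25508639-25510907) had 210.3, 252 and 194 in Type III and 25.5, 25.5 and 11.7 in Type IV, against 1.01, 0 and 0 in Type I and 1.0, 0 and 0 in Type II normalized counts. It was counted with 760 reads in Types III and IV and 2 reads in Types I and II, a ratio of 351 (95% counting interval 96.8 to 2903, counting error only). PRR5 (AT5G24470, chr5:8356204-8358546), a pseudo-response regulator that represses CCA1, had 756, 773 and 817 in Type III and 373, 221 and 71.4 in Type IV, against 14.1, 11.6 and 29.1 in Type I and 5.01, 8.28 and 14.8 in Type II. Its Type III libraries were the highest and within a narrow range, its Type IV libraries spread widely, and none fell to the level of Types I and II (log2 difference 4.85, SE 0.36, limma adjusted p = 4.15e-07). GI (AT1G22770, chr1:8061751-8067790), which stabilises the evening F-box protein ZTL and promotes flowering, had 932, 962 and 798 in Type III and 382, 347 and 243 in Type IV, against 57.4, 79.1 and 96.5 in Type I and 57.1, 40.3 and 88.7 in Type II. The order was again Type III, Type IV and then Types I and II together (log2 difference 2.98, SE 0.18, limma adjusted p = 1.01e-07). TOC1 (AT5G61380, chr5:24674963-24678550), the evening repressor of CCA1, had 604, 720.0 and 543 in Type III and 415, 376 and 383 in Type IV, against 190.2, 189 and 163 in Type I and 212, 201 and 217 in Type II, with no overlap (log2 difference 1.33, SE 0.08, limma adjusted p = 7.62e-08). Between Types III and IV, 9 of the 12 evening genes tested differed, against 35.8% of all loci, with Type III above Type IV in 8 of them. For FKF1 the value was 3.39 (Type III minus Type IV, SE 0.45, limma adjusted p = 0.000149).

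CCA1 (AT2G46830, chr2:19245591-19248915), the central morning MYB factor, had 377, 407 and 435 in Type III and 1827, 1759.6 and 2218 in Type IV, against 3786, 3035 and 3779 in Type I and 4629, 3809 and 4276 in Type II normalized counts. All Type III libraries lay below all Type IV libraries, and those lay below Types I and II (log2 difference -2.12, SE 0.08, limma adjusted p = 6.39e-09; Type III minus Type IV -2.24, SE 0.12, limma adjusted p = 3.6e-07). RVE8 (AT3G09600, chr3:2946239-2949017), a related MYB factor that activates evening genes, had 107, 130.3 and 109 in Type III and 550.0, 524 and 552 in Type IV, against 836, 704 and 863 in Type I and 814, 654 and 817 in Type II, with no overlap (log2 difference -1.63, SE 0.08, limma adjusted p = 2.69e-08). PRR7 (AT5G02810, chr5:637681-642030) and RVE7 (AT1G18330, chr1:6305814-6308243) were 2 of the 3 morning-list genes that were higher. PRR7, a daytime repressor of CCA1, averaged 3688 ± 68.5 in Type III and 2561 ± 677 in Type IV, against 1259 ± 74.1 in Type I and 1069 ± 179.8 in Type II (SD, n = 3 each; log2 difference 1.39, SE 0.12, limma adjusted p = 1.41e-06). RVE7 averaged 697 ± 112 in Type III and 351 ± 107 in Type IV, against 168 ± 22.8 in Type I and 101 ± 34.9 in Type II (log2 difference 1.92, SE 0.19, limma adjusted p = 3.57e-06). In the morning list 12 of 15 genes differed between Types III and IV, against 35.8% of all loci, Type III being the lower in 10. CCA1 lies on chromosome 2 and RVE8 on chromosome 3, and when each library was centred on the median of each chromosome the morning list again had 10 lower and 3 higher.

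**Figure D3:**
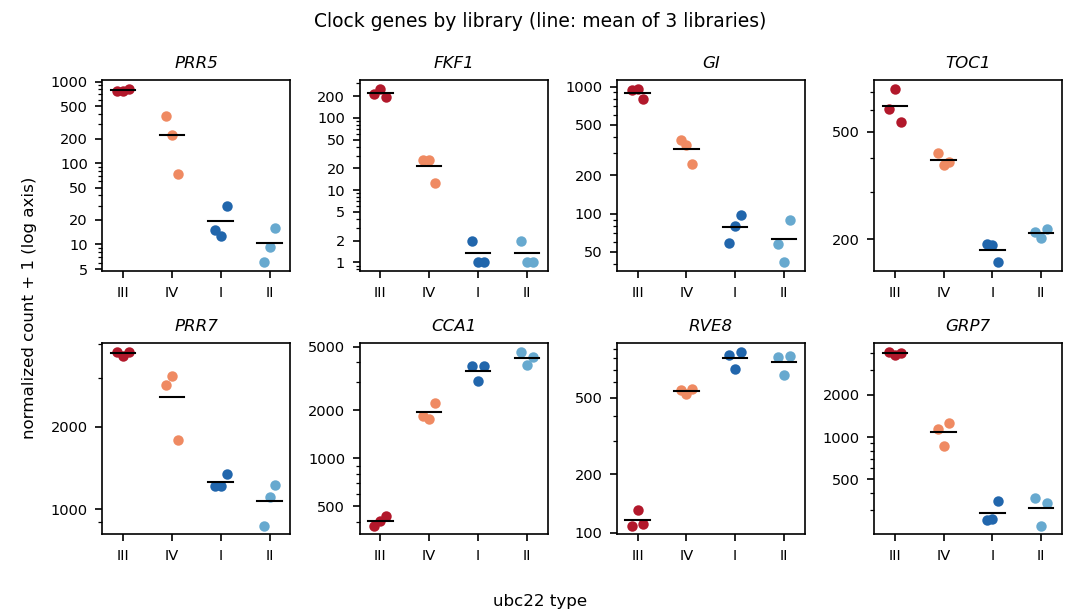
Normalized counts plus 1 on a log axis of 8 clock and clock output genes in the 12 libraries, by type from left to right III, IV, I and II, with 1 point per library and a line at the mean of 3. PRR5, FKF1, GI, TOC1, PRR7 and GRP7 are highest in Type III, CCA1 and RVE8 are lowest in Type III, and Type IV lies between Type III and Types I and II in each panel.

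Genes read out by the clock moved in both directions. Of 9 clock output genes, 5 were higher and 4 lower, with a median log2 difference of 1.34. Over all loci 26.6% were higher and 27.3% lower. GRP7, an RNA-binding protein that peaks in the evening, had 4063, 3841 and 3991 in Type III and 1137, 860.1 and 1267 in Type IV, against 256, 257 and 345 in Type I and 364, 231 and 337 in Type II normalized counts (log2 difference 2.81, SE 0.13, limma adjusted p = 1.82e-08). CCL, a clock-controlled transcript of high abundance, averaged 20328 ± 2439 in Type III and 5136 ± 647 in Type IV, against 2015 ± 556 in Type I and 2457 ± 769 in Type II (SD, n = 3 each; log2 difference 2.23, SE 0.16, limma adjusted p = 2.91e-07). The B-box factors BBX25 and BBX19 were lower, with log2 differences of -1.41 (SE 0.07, limma adjusted p = 2.35e-08) and -1.48 (SE 0.10, limma adjusted p = 2.8e-07). Each of these 4 genes kept the groups apart. With a minimum mean of 50 the median of this list was -0.22. Of 6 photoperiod genes tested, 4 were lower and 1 higher (median -0.83), and the groups overlapped in all 6. COL2, a CONSTANS-like factor, averaged 289 ± 25.3 in Type III and 965 ± 44.7 in Type IV, against 1785 ± 332 in Type I and 1128 ± 166 in Type II (log2 difference -1.41, SE 0.10, limma adjusted p = 2.51e-07). CDF2, a repressor of CONSTANS, averaged 133 ± 8.77 in Type III and 490.3 ± 41.2 in Type IV, against 602 ± 70.8 in Type I and 526 ± 108 in Type II (log2 difference -1.12, SE 0.10, limma adjusted p = 1.41e-06). In both, Type III was low and Type IV lay nearer to Types I and II. COL1 and CDF1 had log2 differences of -0.97 (SE 0.11, limma adjusted p = 1.21e-05) and -0.70 (SE 0.14, limma adjusted p = 0.00106).

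Genes of the dark and sugar starvation list were higher almost throughout. Of 18 tested, 17 were higher and 0 lower, and the median log2 difference was 2.29. Over all loci 26.6% were higher and the median was -0.01. The remaining gene, MIOX1, had a log2 difference of 0.69 and was not called. The dark-inducible gene DIN11, given above as lower (log2 difference -3.02), is not a member of this list. In 11 of the 17 the groups did not overlap, which was so for 8.4% of all loci on the higher side. IVD (AT3G45300, chr3:16621452-16625043), isovaleryl-CoA dehydrogenase of leucine breakdown, had 1751, 1845 and 1988 in Type III and 732, 978 and 454 in Type IV, against 246, 221 and 322 in Type I and 194, 201 and 290.0 in Type II normalized counts, with every library of Types III and IV above every library of Types I and II (log2 difference 2.22, SE 0.17, limma adjusted p = 4.63e-07). DIN1, a classical dark-inducible gene, had 10032, 8561 and 11918 in Type III and 4193, 6552 and 2518 in Type IV, against 763, 913 and 1627 in Type I and 288, 409 and 818 in Type II, again with no overlap (log2 difference 3.22, SE 0.27, limma adjusted p = 1.26e-06). DIN4, a subunit of the branched-chain keto acid dehydrogenase, had the smaller log2 difference of 0.80 (SE 0.07, limma adjusted p = 9.39e-07), at 7578 ± 693 in Type III and 4897 ± 425 in Type IV, against 3418 ± 145 in Type I and 3554 ± 18.3 in Type II (SD, n = 3 each). BCAT2, MIOX2 and MIOX4, given above, also belong to this list. Type III was above Type IV in the 10 of the 18 that differed between these types, where 35.8% of all loci differed. On chromosomes 1 and 5, 8 of 9 members tested were higher. Centring per chromosome left 17 higher with a median of 1.99, and without Type IV replicate 3 the count was 17 and the median 2.49.

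Of 19 starch genes tested, 13 were higher and 4 lower (median log2 difference 0.72), against 26.6% higher and 27.3% lower over all loci. ISA3 (AT4G09020, chr4:5783909-5789100), the debranching enzyme, had 861, 859.7 and 660.5 in Type III and 235, 224 and 261 in Type IV, against 125, 137 and 134 in Type I and 148, 124 and 159.8 in Type II normalized counts, with the 3 Type III libraries far above the rest and no overlap between the groups (log2 difference 1.65, SE 0.09, limma adjusted p = 4.7e-08). DPE1, the plastid disproportionating enzyme, averaged 804 ± 23.0 in Type III and 435 ± 67.1 in Type IV, against 210.1 ± 18.2 in Type I and 216 ± 23.9 in Type II (SD, n = 3 each; log2 difference 1.47, SE 0.08, limma adjusted p = 7.13e-08). PHS2, the cytosolic glucan phosphorylase, averaged 3434 ± 307 in Type III and 1008 ± 119 in Type IV, against 858 ± 40.7 in Type I and 703 ± 55.2 in Type II, and its Type IV libraries overlapped Types I and II (log2 difference 1.26, SE 0.07, limma adjusted p = 7.13e-08). GBSS1 (AT1G32900, chr1:11920390-11923866), the granule-bound synthase that makes amylose, had 289, 266 and 340.4 in Type III and 1035, 862 and 684 in Type IV, against 2052, 1943 and 1767 in Type I and 2057, 1577 and 1423 in Type II, all libraries of Types III and IV being lower (log2 difference -1.83, SE 0.11, limma adjusted p = 1.02e-07). The other 3 lower genes were APL1 and APL3, subunits of the enzyme that makes ADP-glucose for starch, and BAM3, a beta-amylase of starch breakdown. Of the 13 genes that differed between Types III and IV, Type III was higher in 11, and 35.8% of all loci differed between these types.

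The flavonoid and anthocyanin genes were lower. Of 19 tested, 18 were lower and 0 higher (median log2 difference -1.62), and the groups did not overlap in 14. The 1 gene not called was CHI, at -0.09. Over all loci 27.3% were lower, and 7.7% were lower without overlap. All 13 members tested on chromosomes 1 and 5 were lower. Along the pathway, F3'H (AT5G07990, chr5:2560328-2563137), which adds a hydroxyl to the flavonoid ring, had 3.61, 11.2 and 7.13 in Type III and 27.9, 10.6 and 19.6 in Type IV, against 114, 117 and 127 in Type I and 119, 84.8 and 78.5 in Type II normalized counts (log2 difference -3.13, SE 0.25, limma adjusted p = 9.23e-07). LDOX (AT4G22880, chr4:12004726-12006209), which makes the coloured anthocyanidin, had 9.93, 39.4 and 25.5 in Type III and 54.9, 42.6 and 35.2 in Type IV, against 435, 414 and 483 in Type I and 387, 358 and 399 in Type II (log2 difference -3.70, SE 0.24, limma adjusted p = 1.58e-07). UF3GT (AT5G54060, chr5:21936746-21938396), which adds a sugar to the pigment, had 0.903, 6.56 and 7.13 in Type III and 11.1, 10.6 and 9.78 in Type IV, against 124, 122 and 128 in Type I and 150.4, 86.9 and 109.9 in Type II (log2 difference -3.99, SE 0.30, limma adjusted p = 5.48e-07). UGT75C1, another glycosyltransferase of the pathway, averaged 8.9 ± 2.02 in Type III and 17.9 ± 10.6 in Type IV, against 149.9 ± 5.17 in Type I and 157 ± 24.5 in Type II (SD, n = 3 each; log2 difference -3.58, SE 0.23, limma adjusted p = 1.49e-07). In these 4 genes all libraries of Types III and IV lay below all libraries of Types I and II. Acyl groups are added by 5MAT, 3AT1 and 3AT2, whose log2 differences were -3.42 (SE 0.44, limma adjusted p = 2.91e-05), -3.86 (SE 0.34, limma adjusted p = 1.78e-06) and -2.73 (SE 0.27, limma adjusted p = 3.84e-06). 3AT1 and 3AT2 are close relatives, so reads may have been divided between them. GSTF12, needed to carry anthocyanin into the vacuole, averaged 11.9 ± 5.62 in Type III and 49.1 ± 9.1 in Type IV, against 162 ± 32.3 in Type I and 195 ± 46.3 in Type II (log2 difference -2.86, SE 0.23, limma adjusted p = 7.46e-07). Type III was below Type IV in the 10 of the 19 that differed between these types, where 35.8% of all loci differed.

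**Figure D4:**
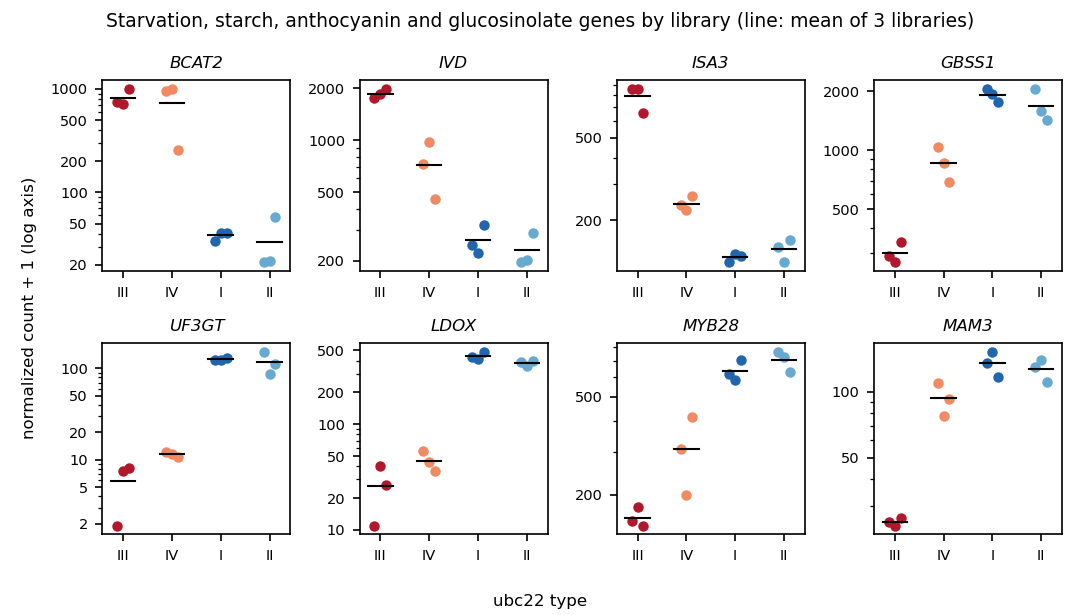
Normalized counts plus 1 on a log axis of 2 amino acid breakdown genes (BCAT2, IVD), 2 starch genes (ISA3, GBSS1), 2 anthocyanin genes (UF3GT, LDOX) and 2 aliphatic glucosinolate genes (MYB28, MAM3) in the 12 libraries, by type from left to right III, IV, I and II, with 1 point per library and a line at the mean of 3. BCAT2, IVD and ISA3 are higher and the other 5 lower in Types III and IV, and no panel shows overlap between the 6 left and the 6 right points.

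Glucosinolate genes were lower as well. Of 20 aliphatic genes tested, 19 were lower and 0 higher (median log2 difference -1.42), and 16 had no overlap. MYB76 was the 1 gene not called, at -0.92. Over all loci 27.3% were lower, and 7.7% were lower without overlap. MYB28 (AT5G61420, chr5:24689069-24691187), the main activator of the aliphatic genes, had 155, 177 and 149 in Type III and 306, 198 and 412 in Type IV, against 621, 583 and 706 in Type I and 761, 726 and 629 in Type II normalized counts (log2 difference -1.62, SE 0.14, limma adjusted p = 1.4e-06). MYB29 (AT5G07690, chr5:2446669-2448584), its relative, averaged 81.5 ± 22.5 in Type III and 162 ± 29.9 in Type IV, against 345 ± 58.3 in Type I and 320.3 ± 27.4 in Type II (SD, n = 3 each; log2 difference -1.54, SE 0.14, limma adjusted p = 1.8e-06). MAM3 (AT5G23020, chr5:7718118-7721866), which lengthens the methionine side chain, had 24.4, 23.4 and 25.5 in Type III and 109, 76.6 and 91.9 in Type IV, against 135, 151 and 116 in Type I and 129, 139 and 109.9 in Type II, with Type III far below Type IV (log2 difference -1.43, SE 0.11, limma adjusted p = 7.41e-07). UGT74C1, a late glycosyltransferase of the pathway, averaged 268 ± 46.7 in Type III and 400.1 ± 25.9 in Type IV, against 795 ± 16.3 in Type I and 944 ± 92.2 in Type II (log2 difference -1.41, SE 0.08, limma adjusted p = 7.13e-08). In each of these 4 the groups were apart. Of 12 indole glucosinolate and camalexin genes, 10 were lower and 0 higher (median -1.39), with 3 of them apart. CYP79B3 and CYP79B2, which start the indole branch from tryptophan, had log2 differences of -1.73 (SE 0.17, limma adjusted p = 4.36e-06) and -1.92 (SE 0.30, limma adjusted p = 0.000159). CYP81F2, which modifies indole glucosinolates, averaged 9.67 ± 5.47 in Type III and 36.6 ± 17.3 in Type IV, against 49.5 ± 12.2 in Type I and 157 ± 36.9 in Type II (log2 difference -2.27, SE 0.30, limma adjusted p = 4.14e-05). The methyltransferase gene IGMT1 had -1.56 (SE 0.27, limma adjusted p = 0.000313). In CYP79B3, CYP79B2, CYP81F2 and IGMT1 the Type II mean was above the Type I mean. Types III and IV differed in 10 of the 20 aliphatic and 8 of the 12 indole genes, against 35.8% of all loci, with Type III lower in each.

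Light and chloroplast genes had medians near 0, with more lower than higher calls in each list. Of 15 light and shade genes, 2 were higher and 7 lower (median log2 difference -0.18), against 26.6% higher and 27.3% lower over all loci. PHYA, the far-red photoreceptor whose transcript accumulates in darkness, averaged 3958 ± 391 in Type III and 3122 ± 641 in Type IV, against 2048 ± 138 in Type I and 1699 ± 296 in Type II (SD, n = 3 each; log2 difference 0.91, SE 0.11, limma adjusted p = 1.73e-05), with no overlap. PHYB, the main red-light receptor, had -0.45 (SE 0.07, limma adjusted p = 0.000144), a call that was lost when libraries were centred per chromosome. HYH, a bZIP factor of light signalling, averaged 16.9 ± 6.76 in Type III and 123 ± 19.4 in Type IV, against 183 ± 22.9 in Type I and 148 ± 15.8 in Type II (log2 difference -1.85, SE 0.17, limma adjusted p = 2.11e-06), its Type IV libraries overlapping Types I and II. PIL1 had -1.86 (SE 0.38, limma adjusted p = 0.00106) with values of 0.937 to 12.8 (median 8.11) in Types III and IV, against 12.8 to 59.0 (median 24.2) in Types I and II. Of 20 chlorophyll synthesis genes, 5 were higher and 7 lower (median -0.09), near the 26.6% and 27.3% over all loci. GLK1, a regulator of chloroplast genes, averaged 996 ± 59.2 in Type III and 1625 ± 363 in Type IV, against 2107 ± 509 in Type I and 2670.2 ± 363 in Type II (log2 difference -0.89, SE 0.12, limma adjusted p = 6.21e-05). GUN4 was lower (-0.45 (SE 0.06, limma adjusted p = 6.66e-05)), while GSA2 and HEMB1, early enzymes of the pathway, were higher (0.48 (SE 0.07, limma adjusted p = 4.86e-05) and 0.37 (SE 0.06, limma adjusted p = 0.000113)). GSA2 lies on chromosome 3, whose own median was 0.32, and its call was lost when libraries were centred per chromosome (log2 difference 0.15, limma adjusted p = 0.0713). Of 22 antenna and Rubisco genes, 3 were higher and 8 lower (median 0.05), against 26.6% and 27.3% over all loci. The Rubisco small subunit genes RBCS1B and RBCS2B were lower (-1.35 (SE 0.16, limma adjusted p = 1.48e-05) and -0.86 (SE 0.10, limma adjusted p = 1.73e-05)), and because these genes are nearly identical the division of reads between them is uncertain. PSBS, of photoprotection, and the antenna gene LHCB4.3 had -0.71 (SE 0.08, limma adjusted p = 1.12e-05) and -1.30 (SE 0.21, limma adjusted p = 0.000227). With differences between types counted in the spread, 0 of the 22 were higher and 7 lower.

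Of 24 jasmonate genes, 10 were lower and 0 higher (median log2 difference -0.77), against 26.6% higher and 27.3% lower over all loci. The groups did not overlap in 2 of the 24, near the 7.7% lower without overlap over all loci. Relative to the mean of the Type I and II libraries, the list median was -0.04 in Type III replicate 2 and 0.02 in Type IV replicate 2. Leaving out single libraries gave 8 to 14 lower genes and medians of -0.99 to -0.52. AOS (AT5G42650, chr5:17097564-17099595), the first enzyme committed to jasmonate, had 864, 2218 and 1245 in Type III and 1796, 2033 and 894 in Type IV, against 3222, 4402 and 3372 in Type I and 2634, 2308 and 3488 in Type II normalized counts, with no overlap (log2 difference -1.17, SE 0.23, limma adjusted p = 0.00089). JMT, which methylates jasmonate, averaged 36.5 ± 16.9 in Type III and 25.6 ± 6.08 in Type IV, against 101 ± 5.98 in Type I and 80.5 ± 14.0 in Type II (SD, n = 3 each; log2 difference -1.58, SE 0.20, limma adjusted p = 2.35e-05). CORI3 and JAZ6 had -1.86 (SE 0.36, limma adjusted p = 0.000689) and -0.81 (SE 0.19, limma adjusted p = 0.00299), with overlap. Of 8 jasmonate and ethylene defence genes, 6 were lower, 0 of them without overlap, and 1 was higher (median -1.16). The higher one was EIN3, a transcription factor of ethylene signalling (0.69 (SE 0.07, limma adjusted p = 3.52e-06)), whose groups were apart. Relative to the mean of the 6 Type I and II libraries, the median of this list was -1.98, -1.59 and -1.27 in Type III and -0.87, -0.81 and -1.07 in Type IV. It was -0.33, -1.14 and -1.15 in Type I and 1.56, 0.08 and 0.87 in Type II. Type I was thus about as low as Type IV, and the high values were in Type II. The plant defensin PDF1.2A had 0.903, 0.937 and 1.02 in Type III and 3.18, 0 and 0.978 in Type IV, against 13.1, 7.72 and 0 in Type I and 229.6, 158 and 393 in Type II, so that its log2 difference (log2 difference -4.13, SE 0.58, limma adjusted p = 6.11e-05) came with high values in Type II and low values in Type I. PDF1.3 was counted with 3 reads in Types III and IV and 580 in Types I and II, a ratio of 209 in favour of Types I and II (95% counting interval 71.3 to 1018). PDF1.2C had 1 read in Types III and IV and 245 in Types I and II, a ratio of 265 in favour of Types I and II (47.2 to 10521). In both, Type I was as low as Types III and IV, at means of 1.3 and 0.657 normalized counts. These defensins are near-identical copies, and the division of reads between them is uncertain.

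Salicylic acid genes separated Type III from Type IV. Of 22 tested, 4 were higher and 6 lower in Types III and IV (median log2 difference 0.01), near or under the 26.6% and 27.3% over all loci, and in none were the groups apart. Between the types 19 of the 22 differed, against 35.8% of all loci, with Type III below Type IV in all 19. PR1 (AT2G14610, chr2:6241640-6242541), the usual marker of this response, had 0.903, 32.8 and 12.2 in Type III and 784, 1006 and 3204 in Type IV, against 499, 224 and 326 in Type I and 3135, 1042 and 1036 in Type II normalized counts. The 3 Type III libraries lay below every library of the other types, while the Type IV libraries spread much as those of Type II (Type III minus Type IV -7.17, SE 0.83, limma adjusted p = 6.45e-05). Over both types the log2 difference of -2.64 (SE 0.59, limma adjusted p = 0.00205) averages -6.22 for Type III and 0.95 for Type IV, each against Types I and II. ACD6, an activator of salicylic acid defence, averaged 132 ± 80.2 in Type III and 618 ± 620.2 in Type IV, against 1525 ± 512 in Type I and 2186 ± 599 in Type II (SD, n = 3 each; log2 difference -2.94, SE 0.38, limma adjusted p = 3.44e-05). WRKY18 had -1.22 (SE 0.26, limma adjusted p = 0.00149). SAG101, a partner of the immune regulator EDS1, was higher (0.52 (SE 0.11, limma adjusted p = 0.00132)), with 127 ± 19.1 in Type III and 296 ± 50.3 in Type IV, against 131 ± 9.63 in Type I and 138 ± 21.5 in Type II, and its Type IV mean was the highest (Type III minus Type IV -1.21, SE 0.16, limma adjusted p = 0.000128).

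Of 24 cell cycle genes tested, 2 were higher and 15 lower (median log2 difference -0.38), with 5 apart. Over all loci 26.6% were higher and 27.3% lower, and 7.7% were lower without overlap. All 6 subunits of the MCM helicase that opens replication origins were lower, a subset picked out after its values were seen. MCM7 (AT4G02060, chr4:900636-905591) had 40.6, 42.2 and 32.6 in Type III and 28.7, 28.7 and 39.1 in Type IV, against 75.5, 67.5 and 73.3 in Type I and 84.2, 66.2 and 65.6 in Type II normalized counts, with no overlap (log2 difference -1.02, SE 0.13, limma adjusted p = 2.36e-05). MCM4 and the sliding clamp PCNA2 had -0.89 (SE 0.09, limma adjusted p = 6.64e-06) and -0.78 (SE 0.08, limma adjusted p = 5.76e-06), on a chromosome whose own median was -0.36. CYCD3;1, a cyclin of the step into replication, had -0.65 (SE 0.09, limma adjusted p = 8.1e-05). Centred per chromosome, 13 of the 24 were lower and 1 higher. Proteasome subunit genes were higher by small amounts. Of 30 tested, 21 were higher and 2 lower (median 0.25), and on chromosomes 1 and 5 the count was 13 higher and 0 lower of 16. RPT3 (AT5G58290, chr5:23569052-23571854), an ATPase of the regulatory particle, had 1229.6, 1301 and 1337 in Type III and 1699, 1516 and 1719 in Type IV, against 859, 923 and 954 in Type I and 1004, 874 and 861 in Type II, with no overlap (log2 difference 0.67, SE 0.06, limma adjusted p = 2.2e-06). PBC1 (AT1G21720, chr1:7626182-7628290), of the core particle, averaged 724 ± 20.1 in Type III and 814 ± 3.5 in Type IV, against 526 ± 16.2 in Type I and 519.7 ± 34.4 in Type II (SD, n = 3 each; log2 difference 0.55, SE 0.05, limma adjusted p = 3.37e-06). PAE2 and RPT5A, on chromosome 3 with its median of 0.32, had 0.80 (SE 0.06, limma adjusted p = 3.7e-07) and 0.61 (SE 0.05, limma adjusted p = 1.89e-06). Centred per chromosome, 20 were higher and 0 lower, and with differences between types counted in the spread 14 were higher and 1 lower.

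Flowering genes were higher in 8 of 13 tested and lower in 2 (median log2 difference 0.28), against 26.6% and 27.3% over all loci. SOC1 and FUL, activators of flowering, averaged 1277 ± 114 in Type III and 651 ± 79.1 in Type IV, against 459 ± 34.2 in Type I and 374 ± 96.7 in Type II and 108 ± 18.3 in Type III and 66.3 ± 3.06 in Type IV, against 38.4 ± 10.1 in Type I and 21.3 ± 1.6 in Type II (SD, n = 3 each), with no overlap in either (log2 difference 1.15, SE 0.11, limma adjusted p = 3.95e-06 and log2 difference 1.54, SE 0.14, limma adjusted p = 2.37e-06). FLC (AT5G10140, chr5:3173382-3179448), a repressor of flowering, had 67.7, 47.8 and 57.1 in Type III and 269, 167 and 127 in Type IV, against 31.2, 48.2 and 67.4 in Type I and 8.02, 5.17 and 6.47 in Type II normalized counts, high in Type IV and low in Type II (log2 difference 2.44, SE 0.22, limma adjusted p = 1.73e-06). AGL19 averaged 95.2 ± 3.23 in Type III and 49.4 ± 8.13 in Type IV, against 9.28 ± 1.01 in Type I and 58.4 ± 8.76 in Type II, with Type I the lowest (log2 difference 1.49, SE 0.13, limma adjusted p = 1.39e-06). Of the flower organ markers, 2 of 5 were tested and 1 was higher. That was SEP3, a gene of floral organ identity, which averaged 20.8 ± 13.7 in Type III and 10.2 ± 2.43 in Type IV, against 14.9 ± 7.61 in Type I and 0.679 ± 0.588 in Type II (log2 difference 1.59, SE 0.36, limma adjusted p = 0.00241). AG, the other, had a log2 difference of -0.53. The part of flower organ RNA in the flowering counts was not tested. Of 24 leaf shape genes, 5 were higher and 6 lower (median 0.11), no more than the 26.6% and 27.3% over all loci. TCP10, which limits leaf cell division, had 221, 259.7 and 221 in Type III and 276, 302 and 316 in Type IV, against 491, 513 and 585 in Type I and 742, 791 and 773 in Type II, with no overlap, on chromosome 2 (log2 difference -1.27, SE 0.07, limma adjusted p = 4.91e-08). AS1, which keeps leaf identity, had -0.76 (SE 0.09, limma adjusted p = 2.11e-05). ROT3 and LNG2, named for leaf length, had -0.95 (SE 0.17, limma adjusted p = 0.000385) and 0.90 (SE 0.11, limma adjusted p = 2.65e-05). Of 13 auxin response genes, 6 were higher and 1 lower (median 0.39). IAA7 and IAA2 had 0.80 (SE 0.08, limma adjusted p = 3.59e-06) and 0.58 (SE 0.09, limma adjusted p = 0.000146), both with no overlap. The auxin-conjugating enzyme genes GH3.5 and GH3.6 had 1.05 (SE 0.12, limma adjusted p = 1.57e-05) and 0.67 (SE 0.09, limma adjusted p = 6.04e-05).

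Of 18 cold and abscisic acid genes, 9 were higher and 1 lower (median log2 difference 0.47), against 26.6% and 27.3% over all loci. With differences between types counted in the spread, 3 were higher and 1 lower. COR47 and ERD14, dehydrins, had 1.46 (SE 0.20, limma adjusted p = 5.81e-05) and 0.79 (SE 0.10, limma adjusted p = 3.22e-05), the groups being apart in ERD14. ABF3, a transcription factor of abscisic acid signalling, was the lower one (-0.53 (SE 0.08, limma adjusted p = 0.000156)). COR15B averaged 390.4 ± 101 in Type III and 149 ± 3.04 in Type IV, against 130.3 ± 30.9 in Type I and 209 ± 37.0 in Type II (SD, n = 3 each), with Type III higher than Type IV (Type III minus Type IV 1.35, SE 0.20, limma adjusted p = 0.000351; log2 difference 0.55, SE 0.14, limma adjusted p = 0.00546). The heat shock list had 2 higher and 1 lower of 6 tested, and between 0 and 2 higher over the other settings. DREB2A had 2.00 (SE 0.38, limma adjusted p = 0.000667), HSP70-4 had -0.93 (SE 0.27, limma adjusted p = 0.0103) and HSFA7A had 0.43 (SE 0.17, limma adjusted p = 0.0495), a call lost in many settings. HSP101 had -0.19 (SE 0.11, limma adjusted p = 0.176) and was not called. The senescence list had 2 higher and 1 lower of 5, a count too small to set apart from the 26.6% and 27.3% over all loci. ORE1, a NAC regulator of leaf ageing, had 1.33 (SE 0.26, limma adjusted p = 0.00089), SAG13 had -1.76 (SE 0.39, limma adjusted p = 0.00192), and PPH, which breaks down chlorophyll, had 0.29 (SE 0.10, limma adjusted p = 0.03). NAP had 0.34 (SE 0.17, limma adjusted p = 0.107) and was not called.

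**Figure D5:**
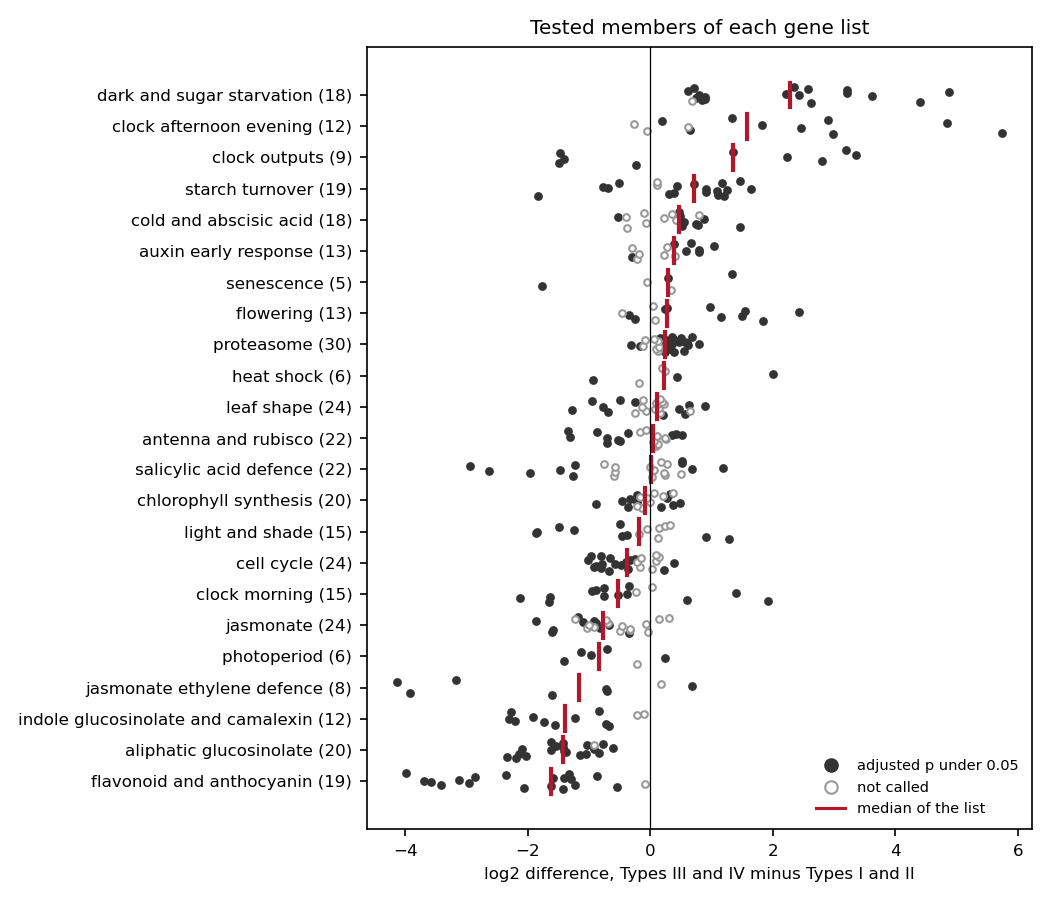
Log2 difference (Types III and IV minus Types I and II) of each tested member of the 23 gene lists, 1 point per gene, filled where the adjusted p was under 0.05, with a red line at the list median and the number tested in brackets. The medians run from 2.29 for the starvation list at the top to -1.62 for the flavonoid and anthocyanin list at the bottom.

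Types III and IV were compared with each other to show where the joint contrast covers unequal values. They differed at 6286 loci (35.8%), with Type III higher at 19.9% and lower at 15.8% of all loci. On chromosomes 1 and 5 they differed at 2650 loci (30.5%), of which 415 (4.78%) were higher and 2235 (25.7%) lower in Type III. That split moved with the scaling, being 980 higher and 1057 lower with size factors from chromosomes 1 and 5, and 245 and 3354 with library totals. The size factors from chromosomes 1 and 5 moved the median Type III minus Type IV difference of all loci to 0.19, against 0.0042 as deposited. Of the 705 loci of chromosomes 1 and 5 that were higher without overlap, 150 differed between Types III and IV, with Type III above Type IV in 111. Of the 420 that were lower without overlap, 169 differed, with Type III below Type IV in 160. Types II and I differed at 2546 loci (14.5%), and on chromosomes 1 and 5 at 618 (7.11%), of which 170 (1.96%) were higher and 448 (5.16%) lower in Type II. That split also moved with the scaling.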

How the data were processed

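Total RNA of leaves was sequenced after a library kit that marks no strand, so reads of a gene and of an antisense partner cannot be told apart. The deposited table holds normalized counts, treated as signal. STAR 2.4.0j, StringTie 1.0.3, HTSeq 0.6.0, DESeq2 1.12.4 and TAIR10 are named per the submitters' processing notes, without the step each served. Within a library all values were whole multiples of 1 number (tolerance 1e-06), so whole reads could be worked out. Of 34307 loci, 260 without an AGI code (0.136% of reads) were left out. For the 1379 codes with more than 1 locus, lists use the locus with the highest mean. Of 32580 codes 31881 were found in the reference, which gave positions (TAIR10.1, RefSeq).

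With R 4.3.3, limma 3.58.1 and its mean-variance trend option were fitted to log2(value + 1) of the 12 mutant libraries with 1 coefficient per type, for 17560 loci, with Benjamini-Hochberg adjustment over all of them. No pair of libraries of a type agreed within sampling noise (chi-square per degree of freedom 4.353 to 19.01). On simulated data for the comparison of Types III and IV with Types I and II the recovered share was 59.7% at 1.5-fold, 89.6% at 2-fold and 100% at 4-fold, and 9 of the unchanged genes were called, over 17560 genes. The simulation changed 67, 67 and 66 genes at these folds, gave the types of a side the same mean and shifted no chromosome. In the data 53.9% of loci were called, so these shares and false calls need not carry over. Upstream windows were read from the genome and annotation, since no promoter table was used. Members, lists and tests were chosen with earlier results of these data known. Named genes are UBC22, the 10 higher and 10 lower loci of chromosomes 1 and 5 and the 5 and 5 of the others with the largest difference (called, no overlap, a mean of at least 30 in the mutant libraries, and a code with a single locus in the table, a condition that left out FKF1 alone), and, in each of 23 lists, the 4 members (or fewer) of lowest p. MIOX1, CHI, MYB76, APL1, APL3, BAM3, SEP3, AG and the MCM subunits were named after their values were seen. Alternatives were other scalings, per-chromosome centring, filters, pseudocounts, recovered reads tested with limma-voom, edgeR 4.0.16 and DESeq2 1.42.0, all 15 libraries in the fit, no type term, and leaving out each library. Intervals cover counting error only.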

Additional observations from a re-analysis of the deposited data

Results flagged for a closer look

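A library stood apart from the other 5 of its side, by Dixon's criterion for 6 values on the log2(value + 1) scale, in 6 of 74 sides examined. The criterion's rate of 1 in 20 holds for values from a single normal population. Each side here pools types that often differed, mostly in genes chosen for large differences, so that rate is no yardstick for this count. Type IV replicate 3 was the low library in BCAT2 (258.2 normalized counts), AT1G15040 (10.76) and ERD5 (3070.0). Type III replicate 1 was the low library in UF3GT (0.9028). In Types I and II, MIOX4 was at 0 in Type I replicate 1 and MIOX2 at 6.015 in Type II replicate 1.

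Types III and IV differed from each other in 74 of the 117 named genes (limma adjusted p under 0.05), against 35.8% of all loci. All named genes but UBC22 were chosen by low p or a large difference without overlap in the same fit. The share over all loci is therefore no yardstick for this count. In 3 of the 74 the types lay on opposite sides of the mean of Types I and II. PR1 had a Type III minus Type IV value of -7.17 (limma adjusted p = 6.45e-05), SAG101 of -1.21 (0.000128) and COR15B of 1.35 (0.000351).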

How the results depend on the processing

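Over 26 other settings the 117 named genes gave 3021 values, of which 2983 kept their direction and their side of the threshold, 36 lost a call, 2 gained one and 0 reversed. The lost calls fell in 9 genes (COL1, COR15B, GSA2, HSFA7A, PHYB, PPH, PR1, SAG101 and SAG13). NAP gained a call without Type II replicate 3 and UBC22 without Type IV replicate 3. Leaving out each library in turn gave 4236 to 4696 higher and 4373 to 4985 lower loci, and on chromosomes 1 and 5 gave 1923 to 2287 and 1602 to 1787. It gave 4561 to 6479 loci that differ between Types III and IV and 1701 to 2994 that differ between Types II and I. With differences between types in the spread, 3372 loci were higher and 3256 lower, against 4668 and 4800 in the main fit. On chromosomes 1 and 5 that setting gave 1596 higher and 1152 lower, against 2230 and 1761. Centring per chromosome, which removes the chromosome-wide shifts, left 3755 loci higher and 3803 lower in Types III and IV. It left 3208 loci that differ between Types III and IV and 347 between Types II and I. On recovered reads edgeR called 4508 higher and 4921 lower, and DESeq2 4441 and 4576. On chromosomes 1 and 5 the share of Type II against Type I calls that were higher was 27.51%, against 49.17% with size factors from those chromosomes and 58.38% with library totals. No paired analysis was possible because the labels number no replicates, and the replicate numbers used here follow accession order and pair nothing. At 1 to 3 reads, as for FKF1 in Types I and II, depth limits the size of a difference.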
